A study of Homo sapiens with 8 samples.

Results

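The response to sorafenib was described within the control cells of a drug combination study in SK-Hep1, an established human line from a liver tumour. All 4 control-cell libraries of the 8 in the series were used. They were chosen by their labels: 2 libraries had been given sorafenib, 1 of them alone and 1 together with dipyridamole (both drugs), and 2 had not, 1 with a control treatment and 1 with dipyridamole alone. Each sorafenib library was set against the library that shared its dipyridamole status, which gave 2 pairs: sorafenib against the control treatment, and both drugs against dipyridamole. The control cells carry no ectopic SLC29A2, the gene of an equilibrative nucleoside transporter, whereas the other 4 libraries of the series come from SK-Hep1 cells made to express it. The labels state neither dose nor duration, and "control treatment" is a reading of a label that names no drug.

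Sorafenib inhibits several kinases, among which are the RAF kinases, the receptors of vascular endothelial and platelet-derived growth factors, and KIT, and it is used against advanced liver cancer. RAF kinases phosphorylate MEK, which activates ERK, and ERK in turn switches on immediate-early genes through ETS-family factors and serum response factor. Among the genes that ERK switches on are phosphatases and Sprouty proteins that damp the same pathway, so their transcripts are widely read as a measure of its output. Dipyridamole blocks equilibrative nucleoside transport and cyclic nucleotide phosphodiesterases.

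The libraries held 15.6 M reads with sorafenib and 15.0 M with both drugs, against 16.7 M with the control treatment and 14.1 M with dipyridamole. Values are FPKM, that is, fragments per kilobase of gene scaled to library size, and 1 read in a gene of 2 kb was worth 0.030 to 0.0355 FPKM. SLC29A2 had 7.11 FPKM with sorafenib and 7.74 with both drugs, against 7.81 with the control treatment and 7.59 with dipyridamole, while the cells carrying ectopic SLC29A2 had 1477 to 3040 FPKM. Hepatocyte markers were nearly absent: of 16 genes, 3 averaged at least 1 FPKM and 7 were at 0 in all 4 libraries, APOA1, APOA2 and FGA among them. Of 14 endothelial markers 4 averaged at least 1 FPKM. Over the 4 libraries ENG had 40.0 to 71.7 FPKM and EGFL7 49.4 to 68.45, whereas CDH5 and PECAM1 were below 1 in every library. Of 13 epithelial markers 7 averaged at least 1 FPKM, and of 20 mesenchymal genes 16 did. Summed FPKM of the epithelial list was 2282 with sorafenib and 803 with both drugs, against 2828 with the control treatment and 874 with dipyridamole. For the mesenchymal list it was 4039 with sorafenib and 2839 with both drugs, against 3409 with the control treatment and 3323 with dipyridamole. No leukocyte marker averaged 1 FPKM.

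Sorafenib-given libraries differed from the others in 662 of 14112 genes, which is 4.69% of the genes tested. Of these, 461 genes (3.27%) were higher and 201 (1.42%) were lower, by limma's moderated test on log2(FPKM + 1) with dipyridamole as a term and an adjusted p under 0.05. The difference had the same sign in both pairs for all 662. The test takes the gap between the pairs as its spread, so genes with opposed pairs could hardly pass. That shared sign is therefore no further support. Of all genes, 43.6% were higher in both pairs and 20.4% were lower in both. A difference of at least 2-fold was reached by 161 of the higher genes and 103 of the lower ones. In both pairs at once, 67 genes (0.475%) were at least 2-fold higher and 48 (0.34%) at least 2-fold lower. The pair with dipyridamole held the larger number of differences of that size, with 620 genes higher (4.39%) and 262 lower (1.86%). In the pair without it 212 were higher (1.5%) and 134 lower (0.95%). The median over all genes was also larger in the pair with dipyridamole, 0.181 against 0.04, and the part of that shift in these counts was not tested. Across genes, which are not independent replicates, the log2 differences of the pairs had a Pearson r of 0.381. Levels did not overlap between the sorafenib-given libraries and the others for 325 of the 461 higher genes, where 20.9% of all genes had that pattern. The same held for 170 of the 201 lower genes, where 9.12% of all genes had it. The genes were called on these same 4 libraries, so the non-overlap describes them and is no separate support.

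Each condition had 1 library and no separate cultures are stated, so the p-values measure only the spread between these 4 libraries. Each gene had 1 residual degree of freedom, with any interplay of the drugs inside that spread. To it limma added 15.6 prior degrees of freedom from a variance trend over all genes. Each SE and p-value thus rests mostly on that shared variance and not on the gene's own spread. The number of calls depended on the processing. It was 0 after median-of-ratios size factors (2430 genes at an unadjusted p under 0.05), without the dipyridamole term (401) and in a fit of all 8 libraries (2391), while limma-voom on reads recovered from the FPKM called 1255. Fits of 7 libraries, each without 1 control-cell library, called fewer genes as well. Each left 1 control-cell pair for the difference, and its spread came only from the SLC29A2 cells. Their p-values therefore hold no spread between control-cell libraries. The median difference over all genes was 0.11 as deposited and -0.01 with size factors, and differences are to be read against that shift. The size factor was 1.13 with both drugs, against 0.97 with sorafenib, 0.928 with the control treatment and 0.982 with dipyridamole. Calls that were higher made up 69.6% as deposited, 74.4% under limma-voom and 53.2% under limma-voom with size factors. With no variance trend at the deposited scaling they made up 53.8%. Transcripts of the mitochondrial genome took 3.04% of reads with sorafenib and 1.88% with both drugs, against 3.71% with the control treatment and 5.74% with dipyridamole. With those genes left out and the rest rescaled, 242 genes were called. Non-coding genes took 1.67% with sorafenib and 2.68% with both drugs, against 1.6% with the control treatment and 2.48% with dipyridamole, and their part in the results was not tested.

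**Figure D1:**
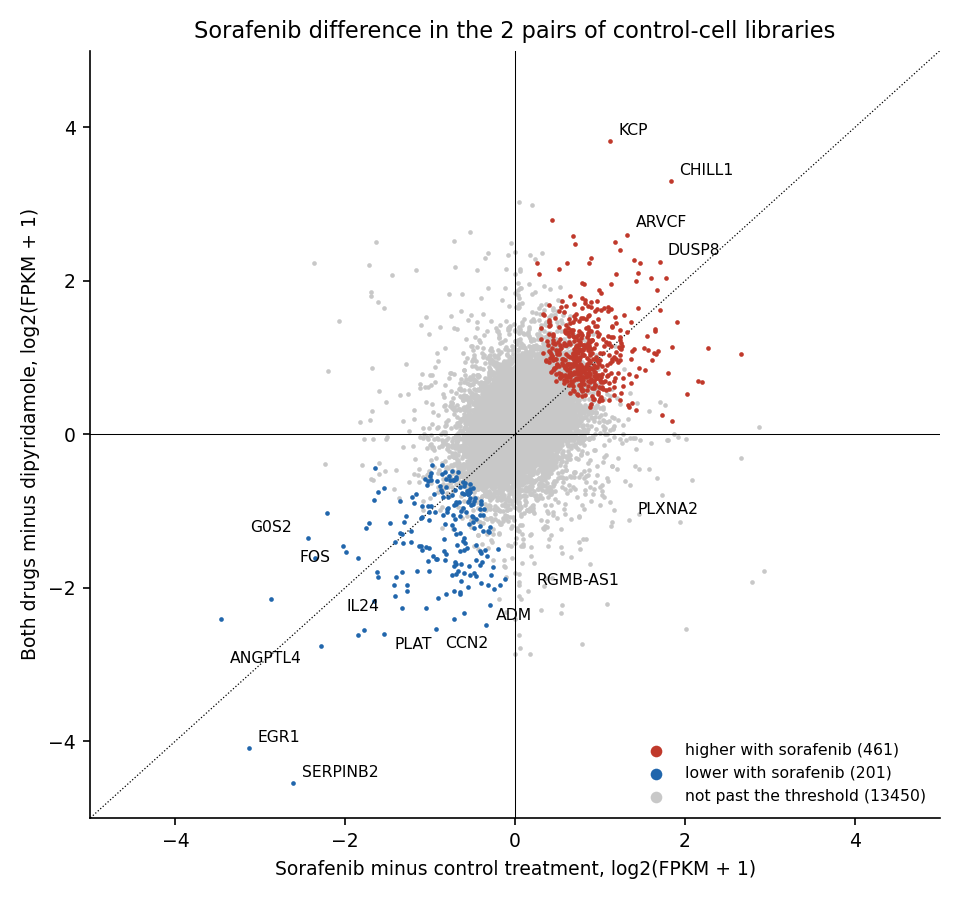
Sorafenib difference of each tested gene in control cells on the log2(FPKM + 1) scale, sorafenib minus control treatment on the x axis and both drugs minus dipyridamole on the y axis. Red and blue points are the 461 higher and 201 lower genes past the threshold, grey points are the rest, and the dotted line marks equal differences; EGR1 and SERPINB2 lie lowest.

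Among the 12 largest falls were genes of growth factor signalling, secreted proteases and their inhibitors, and inflammatory factors. EGR1, a zinc finger transcription factor of the immediate-early class, had 0.511 FPKM with sorafenib and 0.937 with both drugs, against 12.2 with the control treatment and 31.9 with dipyridamole. Both sorafenib-given libraries lay far below the others, and the log2 difference of -3.61 ± 0.26 (SE) passed the threshold (adjusted p = 1.34e-06). SERPINB2, plasminogen activator inhibitor 2, had 5.76 FPKM with sorafenib and 5.89 with both drugs, against 40.2 with the control treatment and 160.5 with dipyridamole. The library with dipyridamole stood above that with the control treatment, both stood above the sorafenib-given libraries, and SERPINB2 fell by 3.58 on the log2 scale. ANGPTL4, a secreted inhibitor of lipoprotein lipase, had 15.5 FPKM with sorafenib and 10.1 with both drugs, against 79.2 with the control treatment and 74.2 with dipyridamole. Here the libraries on each side lay close together, at a log2 difference of -2.52 ± 0.18. G0S2, an inhibitor of the lipase that opens triglyceride stores, fell as well, with 34.04 FPKM with sorafenib and 55.5 with both drugs, against 188 with the control treatment and 143 with dipyridamole. LCE2A, a cornified envelope gene, also fell but had only 1.19 FPKM with sorafenib and 0.677 with both drugs, against 7.89 with the control treatment and 3.60 with dipyridamole.

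Among the 12 largest rises, 11 were highest in the library with both drugs. In all 12 the log2 difference was larger in the pair with dipyridamole than in the pair without it. The medians over all genes, 0.181 with and 0.04 without dipyridamole, differed in the same direction. KCP, which encodes a secreted regulator of BMP signalling, had 2.74 FPKM with sorafenib and 130.1 with both drugs, against 0.718 with the control treatment and 8.30 with dipyridamole. Its level with sorafenib alone lay below that with dipyridamole, so the groups overlapped, and the log2 difference was 1.12 without and 3.82 with dipyridamole. ARVCF, a catenin-family protein of cell junctions, had 19.2 FPKM with sorafenib and 98.9 with both drugs, against 7.10 with the control treatment and 15.6 with dipyridamole. CHILL1, an antisense RNA, had 3.02 FPKM with sorafenib and 13.3 with both drugs, against 0.128 with the control treatment and 0.457 with dipyridamole. The reads recovered for CHILL1 ran from only 1 to 93 over these libraries, so the size of its difference is imprecise. Neither gene's groups overlapped. TRIML2, a tripartite motif protein, ANKRD2, an ankyrin repeat protein of muscle, and the lincRNA LINC01583 rose too, with log2 differences of 1.71, 1.85 and 1.84 in that order. The pseudogene RPS29P16 lies inside PSMC2 and resembles RPS29, so its value of 15.2 FPKM with both drugs is uncertain. Strand is not stated for the counting, so reads of KCP and ATP6V1FNB cannot be told apart where these genes overlap. KCP also overlaps ATP6V1F on the opposite strand and FLNC-AS1 on its own, and ARVCF overlaps a gene on the opposite strand.

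**Figure D2:**
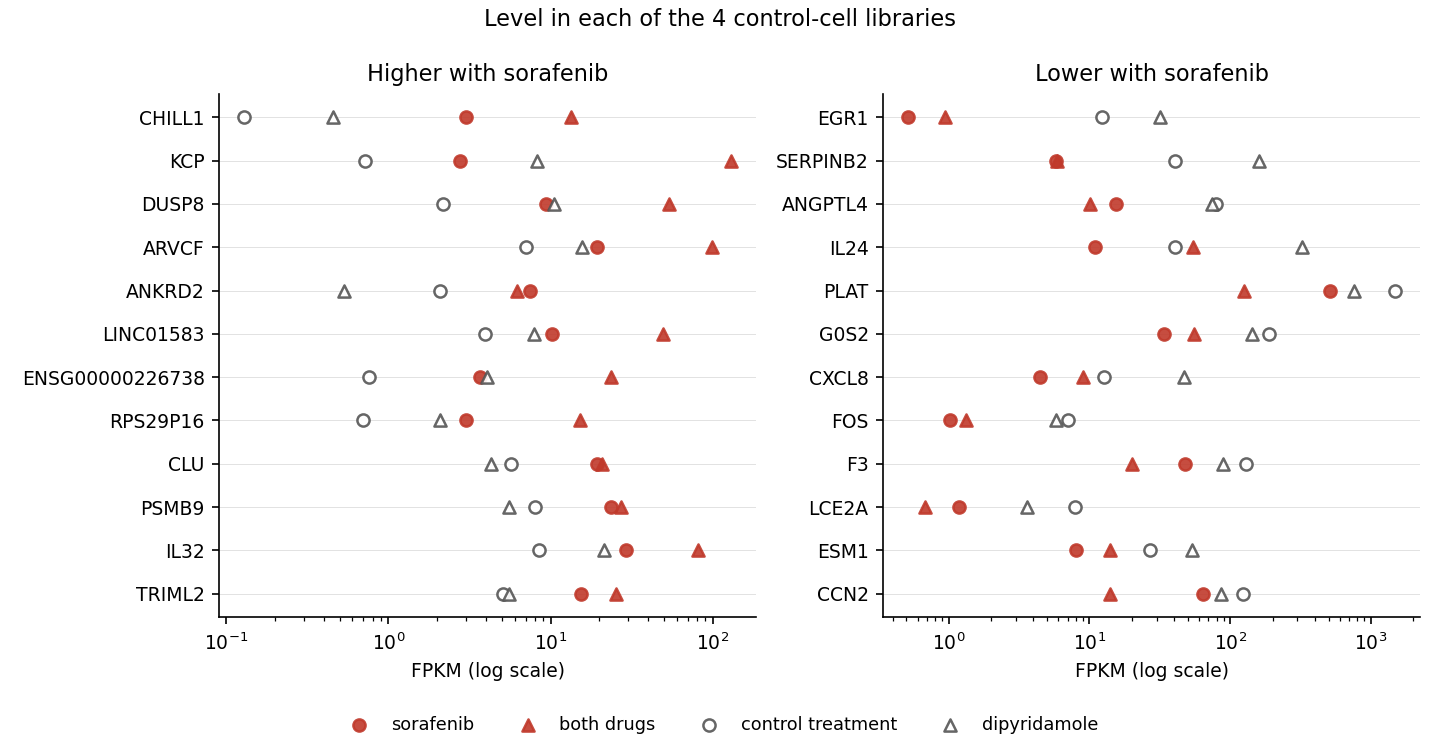
FPKM on a log axis of the 12 genes with the largest rises (left) and the 12 with the largest falls (right) in each control-cell library, chosen among genes past the threshold with at least 5 FPKM on the higher side. Filled symbols are sorafenib (circles) and both drugs (triangles), open symbols are control treatment (circles) and dipyridamole (triangles); EGR1, at 0.511 and 0.937 FPKM in the filled symbols, is the most widely separated of the falls.

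Most transcripts of the kinases that sorafenib inhibits and of their ligands did not pass the threshold, and several of the receptors were barely detected. Of 24 listed kinases and ligands 15 averaged at least 1 FPKM. Of these 2 rose and none fell, where 3.27% of all genes rose and 1.42% fell. In both pairs 9 of the 15 were higher and 0 were lower, where 43.6% of all genes were higher in both and 20.4% lower. The RAF kinases BRAF and ARAF did not pass, with log2 differences of 0.19 and -0.03. KDR, the main receptor of vascular endothelial growth factor, and RET stayed at or under 0.0278 FPKM in every library. FGFR1, a fibroblast growth factor receptor, rose by 0.63 on the log2 scale, with 140.3 FPKM with sorafenib and 248 with both drugs, against 86.9 with the control treatment and 166 with dipyridamole. CSF1, the ligand of the macrophage receptor kinase CSF1R, rose by 1.49 (adjusted p = 0.000493), with 30.8 FPKM with sorafenib and 49.8 with both drugs, against 7.80 with the control treatment and 22.1 with dipyridamole. Its receptor was at or under 0.355 FPKM in all 4 libraries. Among 22 genes of the MAP kinase cascade itself, 1 passed, beside the same shares of all genes. It was KSR1, a scaffold that binds RAF and MEK, which rose by 1.01.

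Of 28 immediate-early genes tested 8 fell and 1 rose, and of 26 feedback regulators and ETS factors of ERK 8 fell and 2 rose, where 1.42% of all genes fell and 3.27% rose. The other 19 and 16 did not pass. Counting a shared gene once, 15 of 53 fell and 3 rose. Their medians were -0.19 and -0.35, beside 0.11 over all genes. FOS, a subunit of the AP-1 transcription factor, had 1.02 FPKM with sorafenib and 1.34 with both drugs, against 7.06 with the control treatment and 5.75 with dipyridamole. DUSP6, a cytoplasmic phosphatase that acts on ERK, had 4.21 FPKM with sorafenib and 3.92 with both drugs, against 11.6 with the control treatment and 18.2 with dipyridamole. In both genes every sorafenib-given library lay under every other library, and the log2 differences were -1.76 and -1.62. IER3, a short-lived early response gene, fell by 1.51, and SPRY4, a Sprouty inhibitor of receptor signalling, fell by 1.00. DUSP5, SPRY2, FOSL1, DUSP1, IER2, ZFP36 and MAFF fell by 0.61 to 0.86. Not all outputs passed: CCND1, the G1 cyclin, had a difference of -0.62 (adjusted p = 0.0545), and the ETS factors ETV4 and ETV5 had -0.54 and -0.36. MYC differed by -0.22 and JUN by 0.37, neither past the threshold.

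The genes of these lists that rose were DUSP8, DUSP16 and ATF3. DUSP8 and DUSP16 are phosphatases that act mainly on the stress kinases JNK and p38. DUSP8 had 9.34 FPKM with sorafenib and 53.5 with both drugs, against 2.18 with the control treatment and 10.5 with dipyridamole. The level with sorafenib alone was slightly under that with dipyridamole, so the groups overlapped, although both pairs differed in the same direction (1.70 and 2.25, adjusted p = 8.81e-05). The antisense gene KRTAP5-AS1 overlaps DUSP8 and had 0.272 FPKM with sorafenib and 6.32 with both drugs, against 0.127 with the control treatment and 0.453 with dipyridamole. ATF3, a stress-induced transcription factor that is also a target of ATF4, rose by 1.10. The promoters of EGR1 and DUSP8 are shown since they lead the falls and the rises of these lists. They come from RefSeq on GRCh38.p14 and span 250 bases before to 50 after the gene start, and both strands were searched for the CArG box, the site bound by serum response factor, and for TGACGTCA, the cAMP response element. Capitals mark the matches, 2 in each promoter.
EGR1, chr5:138465229-138465528, plus strand: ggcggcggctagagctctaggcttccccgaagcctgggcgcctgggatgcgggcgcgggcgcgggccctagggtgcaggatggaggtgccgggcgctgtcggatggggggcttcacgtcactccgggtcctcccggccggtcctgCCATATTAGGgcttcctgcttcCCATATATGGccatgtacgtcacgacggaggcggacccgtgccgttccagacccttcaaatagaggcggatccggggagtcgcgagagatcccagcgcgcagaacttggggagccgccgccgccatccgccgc
DUSP8, chr11:1572222-1572521, minus strand: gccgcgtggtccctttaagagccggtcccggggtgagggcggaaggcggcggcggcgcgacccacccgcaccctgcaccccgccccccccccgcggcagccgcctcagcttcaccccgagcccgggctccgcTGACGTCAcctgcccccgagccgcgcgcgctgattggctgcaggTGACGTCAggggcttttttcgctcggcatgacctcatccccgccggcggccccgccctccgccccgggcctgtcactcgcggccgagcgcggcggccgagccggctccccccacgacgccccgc
In EGR1 the CArG boxes span bases -105 to -96 and -83 to -74 from the start, and in DUSP8 the TGACGTCA matches span -118 to -111 and -74 to -67. A CArG box is held by 1.29% of 35116 promoters of this length and TGACGTCA by 1.85%. Of the immediate-early genes tested, 19 had a promoter in the table of which 2 (10.5%) held a CArG box and 2 (10.5%) TGACGTCA. Of the feedback regulators and ETS factors 18 had one, of which 0 held a CArG box and 3 (16.7%) TGACGTCA. The windows of FOS and DUSP6 held no match. These matches describe the sequence, and binding was not measured.

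**Figure D3:**
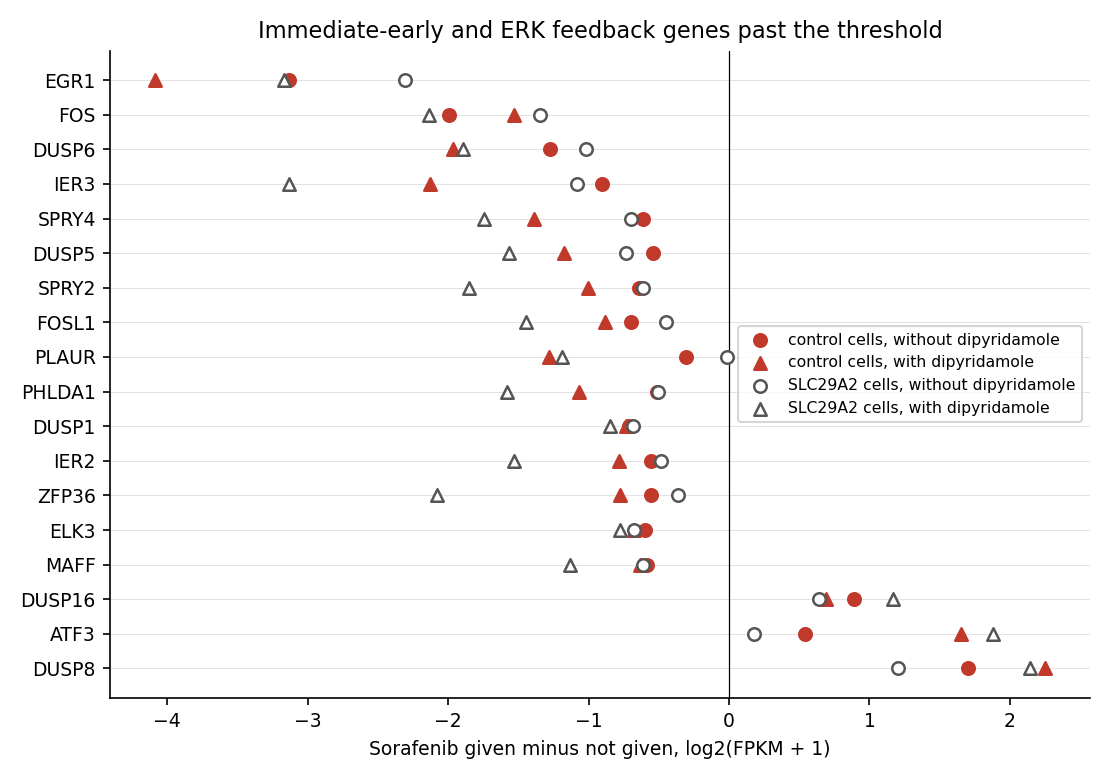
Sorafenib difference on the log2(FPKM + 1) scale (x axis) of the immediate-early and feedback genes past the threshold (y axis), in the pair without dipyridamole (circles) and with it (triangles), for control cells (filled) and SLC29A2 cells (open). The 15 genes that fell and the 3 that rose in control cells had the same sign in both SLC29A2 pairs, PLAUR being nearest to 0.

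Of 22 genes of secreted proteases, their inhibitors, coagulation and related secreted factors tested, 10 fell, none rose and 12 did not pass, where 1.42% of all genes fell. The median was -0.63 and the values ran from -3.58 to 0.22. PLAT, the tissue plasminogen activator, had 509.6 FPKM with sorafenib and 125 with both drugs, against 1492 with the control treatment and 764 with dipyridamole. The groups did not overlap, although the library with both drugs lay far under that with sorafenib alone. F3, tissue factor, which starts coagulation, had 47.9 FPKM with sorafenib and 19.98 with both drugs, against 129 with the control treatment and 89.5 with dipyridamole. ESM1, a secreted proteoglycan of endothelium, had 8.07 FPKM with sorafenib and 13.97 with both drugs, against 26.7 with the control treatment and 53.4 with dipyridamole. Their differences lay between -1.74 and -2.08. PLAU, the urokinase, its receptor PLAUR, and TFPI, the inhibitor of the tissue factor pathway, fell by 0.80, 0.79 and 1.10, and EREG, a ligand of the EGF receptor, fell by 1.2.

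Of 16 chemokine and cytokine genes tested, 5 fell and 3 rose, where 1.42% of all genes fell and 3.27% rose. CXCL8, a neutrophil chemokine, had 4.42 FPKM with sorafenib and 8.94 with both drugs, against 12.7 with the control treatment and 46.9 with dipyridamole, a log2 difference of -1.80 ± 0.23. IL24, a cytokine of the IL-10 family, had 11.0 FPKM with sorafenib and 54.1 with both drugs, against 40.3 with the control treatment and 323 with dipyridamole. Its level with both drugs exceeded that with the control treatment, so the groups overlapped, while each pair differed in the same direction. IL6, IL1B and IL1A fell by 1.28, 1.17 and 1.13. IL32, a pro-inflammatory cytokine, rose by 1.77, with 28.97 FPKM with sorafenib and 81.2 with both drugs, against 8.44 with the control treatment and 21.4 with dipyridamole. IL18 and CCL5 rose by 0.82 and 0.76.

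In the lists of NF-kB, interferon and antigen presentation, the calls were rises, where 3.27% of all genes rose and 1.42% fell. Chemokines and cytokines that fell, such as CXCL8 and IL6, were counted in their own list and not in the NF-kB list. The NF-kB list had 5 rises and no fall among 19 genes, with NFKBIA, the inhibitor that NF-kB induces, at 1.06, TRAF1 at 1.35, ICAM1, an adhesion molecule, at 0.92 and RELB, a subunit, at 0.90. NFKBIA had 88.9 FPKM with sorafenib and 108 with both drugs, against 39.7 with the control treatment and 54.4 with dipyridamole, with no overlap. Interferon-stimulated genes had 5 rises and no fall among 29, led by UBA7, the activating enzyme for ISG15, at 1.66, with ISG15 itself at 0.89. Antigen presentation had 4 rises and no fall among 21, and CIITA of that list differed by -0.79 without passing (limma, adjusted p = 0.0506). The median of antigen presentation was 0.42 without dipyridamole and 0.09 with it, beside 0.04 and 0.181 over all genes. For NF-kB the medians were 0.52 and 0.31, and for interferon 0.29 and 0.36, in the same order. PSMB9, a catalytic subunit of the immunoproteasome, had 23.5 FPKM with sorafenib and 27.1 with both drugs, against 7.96 with the control treatment and 5.57 with dipyridamole. TAP1, a peptide transporter that overlaps PSMB9 on the opposite strand, had 74.7 FPKM with sorafenib and 86.4 with both drugs, against 46.9 with the control treatment and 49.6 with dipyridamole. Both sets of groups stayed apart, and their reads cannot be told apart where the genes overlap. The summed FPKM of 10 leukocyte markers was 2.94 with sorafenib and 3.28 with both drugs, against 2.09 with the control treatment and 0.959 with dipyridamole, with CD3E and LYZ at 0 in all 4. In bulk RNA fewer cells of a type and less RNA per cell cannot be told apart.

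Targets of ATF4, the transcription factor of the integrated stress response, rose in 14 of 42 cases and fell in 1, where 3.27% of all genes rose and 1.42% fell, with a median of 0.49. TRIB3, a pseudokinase that ATF4 induces, had 95.1 FPKM with sorafenib and 232 with both drugs, against 39.0 with the control treatment and 104 with dipyridamole. JDP2, a partner of AP-1 factors, had 30.6 FPKM with sorafenib and 39.0 with both drugs, against 9.67 with the control treatment and 17.7 with dipyridamole. TRIB3 with sorafenib alone lay just under its level with dipyridamole, whereas JDP2 showed no overlap, and their log2 differences were 1.21 and 1.33. NUPR1, ASNS, AARS1, PHGDH, CHAC1 and DDIT3 rose by 0.96 to 1.64. They include asparagine synthetase (ASNS), the alanyl-tRNA synthetase (AARS1) and the first enzyme of serine synthesis (PHGDH). PHGDH and CHAC1 differed mainly in the pair without dipyridamole, PHGDH by 1.84 against 0.18 with it and CHAC1 by 1.73 against 0.26. SLC7A5, a transporter of large neutral amino acids, was the gene of the list that fell, by 0.85, nearly all of it in the pair with dipyridamole. ATF4 itself differed by 0.09. The list median was 0.69 without dipyridamole and 0.21 with it.

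The ASNS promoter is shown because it holds the TGATGNAA element that ATF4 and its partners bind, with N as any base. Capitals mark the match at -68 to -61.
ASNS, chr7:97872359-97872658, minus strand: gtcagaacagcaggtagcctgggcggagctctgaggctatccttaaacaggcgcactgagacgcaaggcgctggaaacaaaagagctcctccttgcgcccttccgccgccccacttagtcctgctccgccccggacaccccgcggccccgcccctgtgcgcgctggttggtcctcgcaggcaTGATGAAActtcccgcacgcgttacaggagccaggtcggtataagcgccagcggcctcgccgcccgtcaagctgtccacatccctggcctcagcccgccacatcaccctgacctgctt
Of the ATF4 targets tested, 36 had a promoter in the RefSeq table and 10 (27.8%) held TGATGNAA on either strand, beside 3.62% of all promoters. The windows of TRIB3 and JDP2 held none.

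None of 24 chaperones and unfolded protein response genes of the endoplasmic reticulum passed, and their differences ran from -0.38 to 0.31. The heat shock list had 3 rises and no fall among 17 genes, where 3.27% of all genes rose. It did not rise as a whole: its median was -0.31 without dipyridamole and 0.46 with it. In both pairs 5 of its genes were higher and 4 were lower. CLU, a secreted chaperone, had 19.3 FPKM with sorafenib and 20.8 with both drugs, against 5.72 with the control treatment and 4.32 with dipyridamole, and the small heat shock genes HSPB8 and HSPB1 rose by 1.27 and 0.78. Of 22 NRF2 targets none passed.

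**Figure D4:**
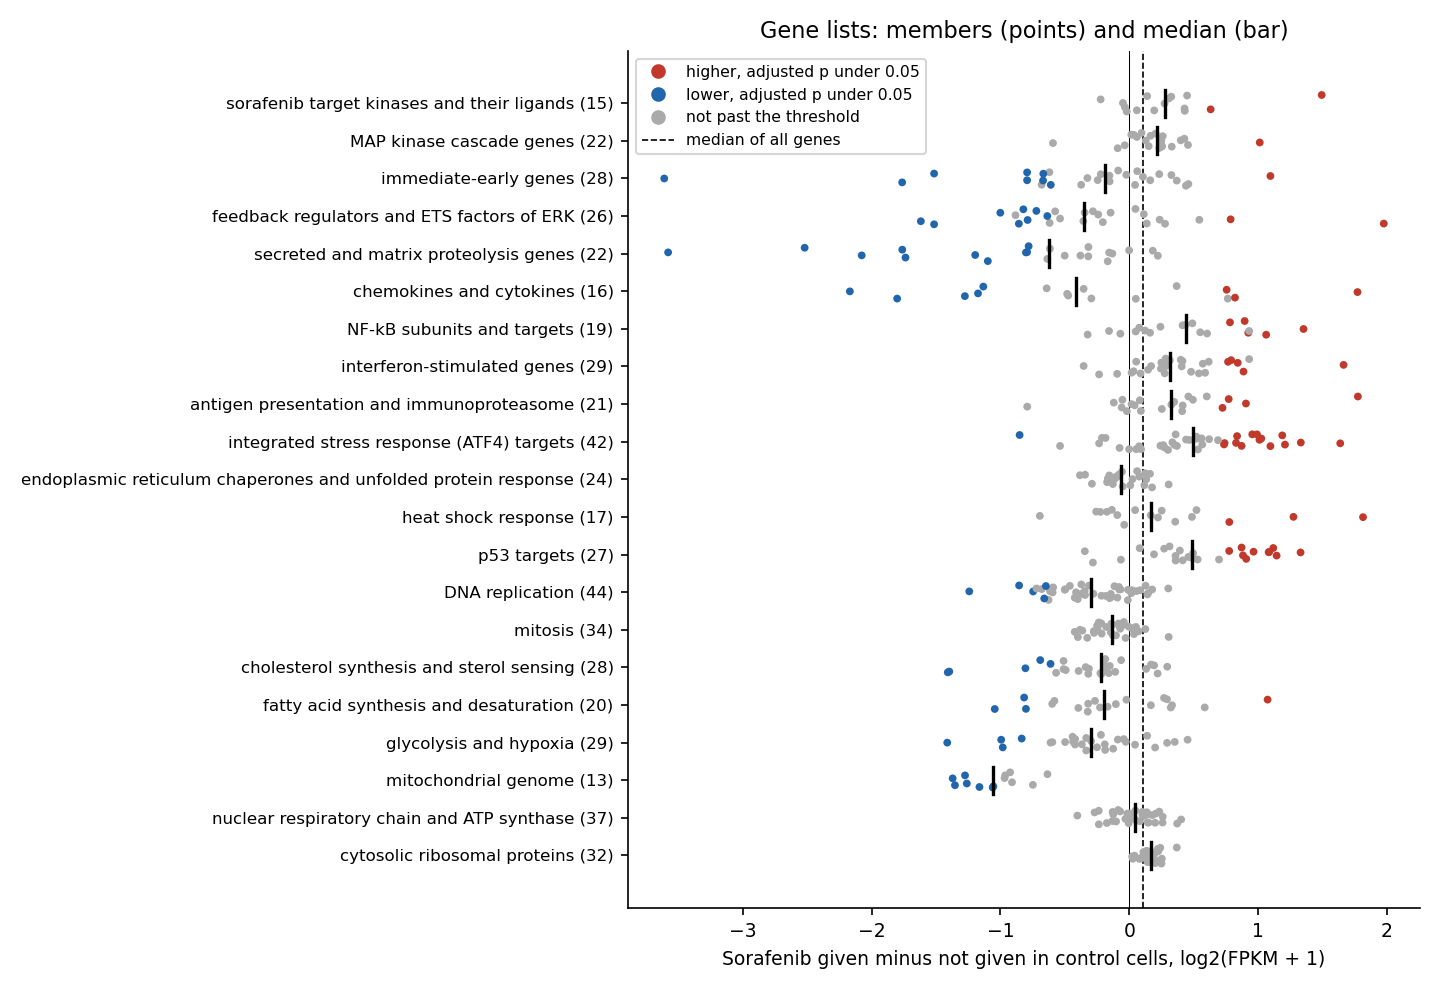
Sorafenib difference in control cells (x axis, log2(FPKM + 1) scale) of the members of 21 gene lists (y axis, number tested in brackets). Points are genes, red higher and blue lower past the threshold, short bars are list medians and the dashed line is the median of all genes, 0.11; the ATF4 and p53 lists have medians of 0.49 and the mitochondrial genome -1.05.

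Genes of growth arrest and cell death in the p53 list rose in 10 of 27 cases, and none fell, where 3.27% of all genes rose. BBC3, a pro-apoptotic BH3-only protein, had 37.8 FPKM with sorafenib and 75.3 with both drugs, against 14.5 with the control treatment and 29.2 with dipyridamole, a log2 difference of 1.33 ± 0.17. GADD45A, a growth arrest gene that stress kinases also regulate, had 774 FPKM with sorafenib and 2400 with both drugs, against 346 with the control treatment and 1195 with dipyridamole. BBC3 did not overlap between the groups, but GADD45A with sorafenib alone lay under its level with dipyridamole. SESN1, BTG2 and PHLDA3 rose by 1.14, 1.12 and 1.09. CDKN1A and MDM2, the best known p53 targets, differed by 0.36 and 0.46 and did not pass. In the BCL2 family BCL2L1, which protects from apoptosis, rose by 0.59 and BNIP3L fell by 0.63, besides BBC3.

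Of 44 DNA replication genes 5 fell and none rose, where 1.42% of all genes fell, with a median of -0.30 that was -0.42 without dipyridamole and -0.03 with it. RRM2, a subunit of ribonucleotide reductase, had 59.4 FPKM with sorafenib and 8.96 with both drugs, against 140 with the control treatment and 22.9 with dipyridamole. Sorafenib alone lay above dipyridamole, so the groups overlapped, but both pairs differed by -1.22 to -1.26. UHRF1, FEN1, MCM7 and MCM3 fell by 0.65 to 0.85. None of 34 mitotic genes passed, and their differences ran from -0.42 to 0.31. CDKN1C, an inhibitor of cyclin-dependent kinases, and CCND2 rose by 1.07 and 1.07.

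Of 28 genes of cholesterol synthesis and sterol sensing 5 fell and none rose, where 1.42% of all genes fell. INSIG1, which holds back the sterol-sensing SREBP pathway and is itself its target, had 25.1 FPKM with sorafenib and 14.3 with both drugs, against 68.4 with the control treatment and 39.7 with dipyridamole, and both pairs differed by -1.41. Its groups did not overlap. In fatty acid synthesis FASN, SCD and ELOVL6 fell by 1.04, 0.80 and 0.82, while FADS3 rose by 1.07. In glycolysis and hypoxia 4 of 29 genes fell and none rose, beside the same 1.42%: ADM, a vasodilator peptide, SLC2A1, the main glucose transporter, LDHA, and the lactate exporter SLC16A3. LDHA had 812 FPKM with sorafenib and 292 with both drugs, against 1437 with the control treatment and 657 with dipyridamole.

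Transcripts of the mitochondrial genome were lower in both pairs for all 13 protein genes, where 20.4% of all genes were. Of the 13, 7 passed, where 1.42% of all genes fell, and the median was -1.05. Their medians were -0.42 without dipyridamole and -1.52 with it. MT-CO2, a subunit of cytochrome oxidase, had 3984 FPKM with sorafenib and 2037 with both drugs, against 5869 with the control treatment and 8099 with dipyridamole, a log2 difference of -1.27 ± 0.34. MT-ND3, a complex I subunit, fell by 1.35, and MT-ATP8, whose gene overlaps MT-ATP6, by 1.37. Of the nuclear genes of the respiratory chain 0 of 37 passed the threshold in limma and a median of 0.04 that was -0.09 with size factors. These genes also enter the total to which FPKM are scaled.

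In the TGF-beta, CCN and YAP list, 3 of 26 rose and 2 fell. For it and for the lists that follow, the shares over all genes were 3.27% higher and 1.42% lower. CCN2, connective tissue growth factor, had 64.3 FPKM with sorafenib and 13.97 with both drugs, against 123 with the control treatment and 86.3 with dipyridamole. THBS1, thrombospondin 1, fell by 1.26, whereas TGFB2, a TGF-beta ligand, rose by 1.39. In nucleoside transport SLC29A1, another equilibrative transporter, had 62.3 FPKM with sorafenib and 38.7 with both drugs, against 109 with the control treatment and 77.2 with dipyridamole, and it fell by 0.89. NT5E, the ecto-enzyme that makes adenosine, fell by 0.96 and CDA, cytidine deaminase, rose by 0.71. Of 9 stem cell markers tested 2 fell and 1 rose, beside the same 1.42% and 3.27%. ALDH1A3 fell by 0.81 and ICAM1 rose by 0.92. ANPEP, an aminopeptidase also called CD13, had 802 FPKM with sorafenib and 454 with both drugs, against 2123 with the control treatment and 1647 with dipyridamole, with no overlap and a difference of -1.63. SLCO4A1, an organic anion uptake transporter, fell by 1.30. In the iron list ERFE, the hormone erythroferrone, rose by 1.24, with differences of 0.25 without and 2.23 with dipyridamole. Among mesenchymal genes ACTA2 and COL5A1 rose by 0.86 and 0.84, and the other 14 tested did not pass. In the epithelial list KRT7 rose by 1.00 and the other 6 tested did not pass, with a list median of -0.10. In the hepatocyte list SERPINA1 rose by 0.95 and the other 2 tested did not pass, with a median of -0.52. None of 32 cytosolic ribosomal protein genes or 35 autophagy and lysosome genes passed.

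The pairs differed most in genes chosen for that gap, which are given as values with no test. The gap was largest upward in ATP6V1FNB, ENSG00000260542, CGB8 and KCP. ATP6V1FNB had 0.443 FPKM with sorafenib and 16.5 with both drugs, against 1.09 with the control treatment and 1.82 with dipyridamole. CGB8, a chorionic gonadotropin beta gene with near-identical neighbours, had 0.145 FPKM with sorafenib and 7.58 with both drugs, and in the libraries without sorafenib 0 with the control treatment and 0.0806 with dipyridamole. The library with both drugs stood apart from the other 3 in both genes. PLXNA2, a semaphorin receptor, had 19.5 FPKM with sorafenib and 10.4 with both drugs, against 7.10 with the control treatment and 23.9 with dipyridamole, so its pairs ran in opposite directions. RGMB-AS1, MT-TP and ADM were the others with the largest gap downward. RGMB-AS1 overlaps RGMB on the opposite strand and MT-TP is a mitochondrial tRNA gene.

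The SLC29A2 cells, whose libraries are separate from those of the control cells, gave the same direction for most genes. Of the 461 genes that rose in control cells 425 (92.2%) were higher in both SLC29A2 pairs, where 38% of all genes were, and of the 201 that fell 190 (94.5%) were lower in both, where 23.4% of all genes were. Of the 24 genes with the largest rises and falls, 23 had the same direction in both SLC29A2 pairs. The exception was RPS29P16, with differences of -0.68 without and 0.90 with dipyridamole. In SLC29A2 cells EGR1 differed by -2.31 without and -3.17 with dipyridamole, beside -3.13 and -4.09 in control cells. When the sorafenib difference itself was compared between the cell types over all 8 libraries, 0 of 13899 genes (0%) passed in limma, 157 had an unadjusted p under 0.05, and the smallest adjusted p was 1. That does not show that the cell types respond alike. The genes with the smallest p were ENSG00000278876, ENSG00000274213 and ENSG00000282206, for which control cells minus SLC29A2 cells was positive, and MT-ATP8, ENSG00000268087 and SCT, for which it was negative. MT-ATP8 differed by -1.33 and -1.42 in control cells and by -0.32 and -0.53 in SLC29A2 cells.

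**Figure D5:**
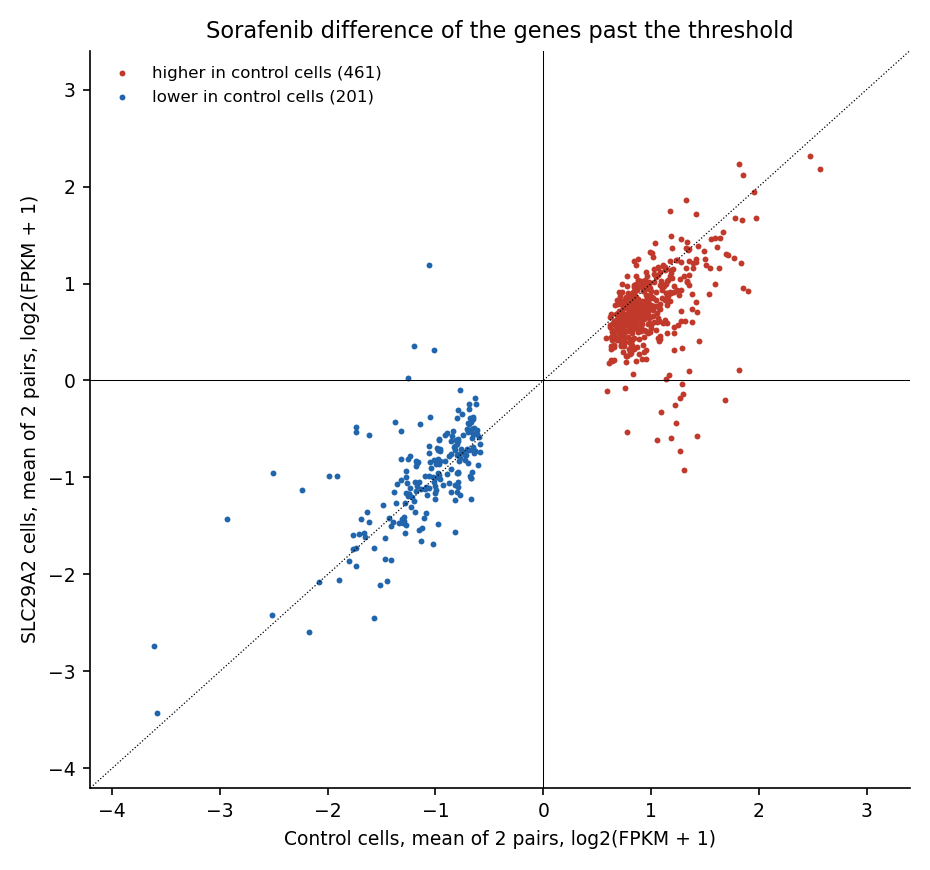
Mean sorafenib difference of the 2 pairs of control cells (x axis) and of SLC29A2 cells (y axis) on the log2(FPKM + 1) scale, for genes past the threshold in control cells. Red points are the 461 higher and blue the 201 lower genes and the dotted line marks equal differences; the genes were chosen on the x axis, and most lie on the same side of 0 on the y axis.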

How the data were processed

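Poly(A)-selected RNA of SK-Hep1 cells was sequenced, per the labels. The deposited values are FPKM per gene, computed by the authors, 1 table per library. Per the submitters' processing notes, TopHat2 2.0, HTSeq 0.6.1, edgeR and GRCh38.p12 were used, with no role given for each. Of 58310 lines 8 named no gene and were left out, and 58039 of 58302 genes matched GENCODE 29.

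Genes that averaged 1 FPKM or more in the 4 control-cell libraries were tested on log2(FPKM + 1), which understates changes of low genes. limma 3.58.1 in R 4.3.3 fitted sorafenib and dipyridamole with trended variances, two-sided, with Benjamini-Hochberg adjustment over 14112 genes at 0.05. The cell type by sorafenib term used all 8 libraries. FPKM times transcript length gave whole reads for 93.6% of values at a tolerance of 0.01, from which depth and the reads for limma-voom were recovered. Each ± value is the SE of the limma fit, whereas the FPKM worth of 1 read reflects depth only.

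Named genes were the 12 largest differences in each direction with at least 5 FPKM on the higher side, up to 5 genes per list, the largest gaps between pairs, and the smallest p of the cell type by sorafenib term. MYC, JUN, CCND1, CDKN1A, MDM2, ATF4, ETV4, ETV5, BRAF and ARAF, and further list members past the threshold, were named after their values were seen. Some list members are not reported here. Members, lists and this rule were chosen with earlier results of these data known.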

Additional observations from a re-analysis of the deposited data

Results flagged for a closer look

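Among the genes named for the largest gap, the pairs of control-cell libraries ran in opposite directions in 4, and this difference between pairs was not tested. The log2 difference with dipyridamole minus that without it was 3.17 for ATP6V1FNB, -2.32 for MT-TP, -2.46 for PLXNA2 and -2.20 for RGMB-AS1. PLXNA2 and RGMB-AS1 differed by -0.89 and -2.01 with dipyridamole in SLC29A2 cells too, where the pair without it gave 1.29 and 0.06.

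In 5 of the named genes both control-cell pairs ran one way and both SLC29A2 pairs the other, with an adjusted p of 1 for the cell type by sorafenib term in limma. The control-cell minus SLC29A2-cell difference was -0.92 for ENSG00000268087, 1.71 for ENSG00000274213, 1.66 for ENSG00000278876, 0.65 for RPS27 and 0.43 for UQCRB. RPS27, a ribosomal protein gene, differed by 0.17 and 0.28 in control cells and by -0.16 and -0.69 in SLC29A2 cells. UQCRB, a complex III subunit, differed by 0.19 and 0.33 in control cells and by -0.003 and -0.34 in SLC29A2 cells, so that the SLC29A2 pair without dipyridamole lay next to 0.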

How the results depend on the processing

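The number of genes past the threshold (662) was 369 with a pseudocount of 0.1, 0 with no filter on low values (2832 at an unadjusted p under 0.05), 997 with a mean of at least 5 FPKM, 0 with size factors (2430), 242 without the mitochondrial genome, 0 unpaired (401), 0 with all 8 libraries (2391), 80 with no variance trend and 1255 with limma-voom. With size factors all 661 calls still present kept their direction and 659 had an unadjusted p under 0.05. limma-voom with size factors, chosen after seeing the data, gave 293. Leaving out a library gave 10 (dipyridamole) to 177 (sorafenib), from 7 libraries in which the lone library is assumed to vary like the rest. The number of genes 2-fold apart in both pairs (115) was 307 with a pseudocount of 0.1, 31 with 5, 74 with a mean of at least 5 FPKM, and 346 to 882 where a library was left out and 1 pair remained. The count for the cell type by sorafenib term was 0 under the other pseudocounts, filters and scalings. It was not computed for the unpaired fit, the fit with no variance trend or limma-voom. It was above 0 where a library was left out, but those fits hold a lone control-cell library with or without sorafenib. Of 105 named genes past the threshold none changed sign in the 13 to 15 alternatives that gave it a value, and 33 passed in at least 8. The kept sign was largely fixed in advance and is no measure of robustness. Both pairs shared a sign in every called gene, and a fit without 1 control-cell library returns 1 of those pairs. PLXNA2 reversed to -0.01 with size factors, -0.042 with limma-voom and size factors, and ran from -1.12 (without sorafenib or control treatment) to 1.34 over the left-out libraries. Over these, SLC29A2 ran from -0.12 to 0.025, ATP6V1FNB from -0.53 to 2.64, MT-TP from -1.97 to 0.34 and RGMB-AS1 from -2.04 to 0.15. The cause was not tested. No replicate numbers pair the libraries. The list medians of autophagy, BCL2, cyclin, respiratory chain and TGF-beta genes change sign with size factors. At 14.1 to 16.7 M reads, differences of genes near 1 FPKM are the least precise.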
